A study of Mus musculus with 18 samples.

Results

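The BCL2 family of survival and death genes was followed in mouse CD4+ T cells through 8 of its members, namely Bcl2, Bcl2l1, Mcl1, Bak1, Bcl2l11, Bid, Bad and Bmf. They were chosen by gene symbol, and the values of distinct entries of a table with the same symbol were summed. All 8 were found among the 22783 gene symbols of experiment 1 and the 16639 of experiment 2, and none of them was listed at 0 in any library.

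Naive CD4+ T cells were sorted from spleens of C57BL/6 mice, activated in culture with antibodies against CD3 and CD28, and taken for RNA sequencing on day 4. In experiment 1, cells of Egln1fl/fl Egln2fl/fl Egln3fl/fl Cd4Cre mice (tKO) were compared with Cd4Cre cells (WT) at 0, 0.2 and 2 ng/ml TGF-b, with 2 libraries in each of 6 groups. Both genotypes carry Cd4Cre, a recombinase transgene expressed in developing T cells, so the genes are lost before the naive cell forms. The deleted genes encode the prolyl hydroxylases PHD2 (Egln1), PHD1 (Egln2) and PHD3 (Egln3), which use oxygen to mark HIF transcription factors for breakdown. In experiment 2, wildtype cells were cultured at 2 ng/ml TGF-b with vehicle or 1 mM DMOG (dimethyloxaloylglycine), an inhibitor of PHD and related dioxygenases, with 3 libraries in each of 2 groups. The design asks what loss or inhibition of the PHD enzymes does to gene expression in these cells with and without TGF-b, the cytokine that turns naive CD4+ T cells into induced regulatory T cells.

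BCL2 family proteins decide at the mitochondrial outer membrane whether a cell enters apoptosis. The pro-survival proteins BCL2, BCL-XL (the product of Bcl2l1) and MCL1 hold in check the effectors BAK (Bak1) and BAX, which form pores in that membrane, and the BH3-only proteins BIM (Bcl2l11), BID, BAD and BMF bind the pro-survival proteins or activate the effectors. In T cells BIM is the main killer of activated cells once cytokine support ends, BCL-XL is induced by CD28 costimulation, and MCL1 is a short-lived protein needed at every stage of the lineage.

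Bcl2l1 was higher, and Mcl1 and Bcl2l11 lower, in cells without the PHD enzymes, averaged over the doses, and in cells with DMOG at 2 ng/ml. Bcl2l1 rose at every dose of TGF-b, from a mean of 84.0 to 142.9 FPKM without TGF-b and from 34.2 to 120.6 FPKM at 2 ng/ml, and from 35.4 to 110.8 FPKM with DMOG. Mcl1 fell, from 141.0 to 102.0 FPKM over the doses and from 114.5 to 87.1 FPKM with DMOG. Bcl2l11 fell from 9.05 to 4.52 FPKM over the doses, with a wide spread between tKO libraries, and from 15.7 to 1.84 FPKM with DMOG. At 2 ng/ml, the dose used with DMOG, neither gene was called in tKO over WT. Mcl1 went from 140.5 to 106.8 FPKM at that dose and Bcl2l11 from 6.52 to 4.16 FPKM. Bcl2 rose in tKO at 2 ng/ml, a call lost in 5 of 12 alternatives, and with DMOG. TGF-b at 2 ng/ml lowered Bcl2l1 and Bcl2 in WT, the call for Bcl2 lost in 7 of 13 alternatives, and neither passed the test in tKO. The difference between the genotypes in this response was called for Bcl2l1, though lost in 8 of 15 alternatives, and not for Bcl2.

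FPKM counts sequenced fragments per kilobase of a transcript, scaled to a fixed number of mapped fragments, so levels of different genes can be set side by side within a table. Each fold change is a difference of log2(FPKM + 1), written ± SE, a scale that understates changes of weakly expressed genes. A gene was called when its adjusted p in limma's moderated test, with Benjamini-Hochberg adjustment over all genes tested, was under 0.05. Group means are given ± SD. Nothing in the labels says that the libraries came from separate animals or cultures, so the p-values measure the spread between these samples, which may be technical. The libraries of a genotype form 2 labelled series across the doses, and the fold changes averaged over the doses treat its 6 libraries as independent. In such bulk samples, fewer cells of a type and less RNA per cell cannot be told apart. The comparisons at 1 dose and those between doses use the same libraries, so their values are set side by side and are not independent.

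The FPKM of a library summed to between 548974 and 856147 in experiment 1 and to between 386382 and 443888 in experiment 2. These sums moved with the groups. In WT they were 630548 to 676963. In tKO they were 711375 to 856147 at 0 and 0.2 ng/ml, and 563272 and 548974 at 2 ng/ml. With DMOG they were 429789 to 443888, and with vehicle 386382 to 417126. Quantile normalization was among the alternatives, and the part of these sums in the results was not otherwise tested. Across genes, r between libraries of the same group was 0.960 to 0.983 in experiment 1 and 0.990 to 0.997 in experiment 2. Relative reads per FPKM ran from 0.544, in tKO at 0.2 ng/ml replicate 2, to 1.23 in experiment 1, and between 0.759 and 1.25 in the other table. Egln2 was lower in tKO (19.9 to 39.0 FPKM against 35.6 to 48.8), and Egln1 and Egln3, themselves HIF targets, were higher in tKO (92.8 to 121.5 against 20.4 to 44.3, and 77.4 to 140.2 against 5.68 to 18.7). A floxed allele loses only some exons, so an FPKM over the whole gene does not check the deletion. T cell markers summed to 2640 to 3227 FPKM in tKO and 3282 to 3852 FPKM in WT. Averaged over the doses, 7 of 10 tested markers were called lower and 1 higher (13.3% and 13.9% of all genes tested). The T cell list summed to 1479 to 1876 FPKM with DMOG and 2793 to 3222 FPKM with vehicle. With DMOG 10 of 11 were called lower (33.2% of all genes tested). The list of dendritic cell and MHC class II markers summed to 1006 to 1419 FPKM in tKO and 309 to 1079 FPKM in WT. It summed to 220 to 341 FPKM with DMOG and 94.8 to 116.0 FPKM with vehicle. Called higher were 2 of 4 tested markers in tKO averaged over the doses, H2-Ab1 and Zbtb46 (13.9% of all genes), and 3 of 3 with DMOG (27.7%). Means of Zbtb46 were 5.03 FPKM in tKO against 1.59 FPKM in WT, and 1.99 FPKM with DMOG against 0.244 FPKM with vehicle. Cd74 was not called in tKO averaged over the doses. Cd74 and H2-Ab1 made most of these sums. H2-Aa had a lower mean in tKO (34.8 against 57.0 FPKM, not called) and with DMOG (0.321 against 1.35 FPKM, too low to be tested). Means of Itgax and Flt3 stayed under 0.21 FPKM. Sums for B cell, myeloid, CD8, NK and erythroid markers stayed at or under 84.2 FPKM in experiment 1 and 12.4 FPKM in experiment 2, and Lyz2, Lyz1, S100a8, S100a9 and Ncr1 were at 0 throughout experiment 1. With DMOG the B cell sum was 0.857 to 1.22 FPKM against 7.64 to 12.4 FPKM with vehicle, and the myeloid sum 0.139 to 0.344 FPKM against 7.78 to 7.93 FPKM. Most of the B cell sum was Cd79b (means of 0.932 against 7.42 FPKM). Most of the myeloid sum with vehicle was Itgam (0.0152 against 6.85 FPKM), while the means of Cd14 and Emr1, near 0, did not fall. The NK sum was higher with DMOG (4.48 to 5.66 FPKM against 1.19 to 1.66 FPKM). Most of it was Klrc1 (means of 4.50 against 0.997 FPKM), while Klrb1c was lower (0 against 0.360 FPKM). In tKO averaged over the doses, Cd8b1 (10.9 against 6.12 FPKM) and Klrc1 (8.24 against 2.92 FPKM) were called higher. They were the only tested markers of the CD8 and NK lists in experiment 1. These marker sums moved with the groups compared, and their part in the results on the BCL2 genes was not tested.

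Since Bcl2l1 and Bcl2l11 moved in opposite directions in both experiments, their promoter windows are shown. Each is the 250 bases before a RefSeq transcript start in build GRCm38.p6, read along the gene's strand. For Bcl2l1 it is the window of the most upstream of 3 starts, chr2:152831729-152831978 on the minus strand, and for Bcl2l11 that of the more upstream of 2 starts, chr2:128125788-128126037 on the plus strand. Capitals mark matches on either strand to GCGTG, a core to which HIF can bind, and to GTAAACA, a core of FOXO sites (a GCGTG on the opposite strand reads CACGC here).
Bcl2l1: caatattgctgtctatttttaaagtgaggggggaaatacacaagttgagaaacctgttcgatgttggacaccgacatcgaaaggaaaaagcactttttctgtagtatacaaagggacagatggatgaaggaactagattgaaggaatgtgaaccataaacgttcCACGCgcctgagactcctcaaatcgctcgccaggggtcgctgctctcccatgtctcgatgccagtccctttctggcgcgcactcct
Bcl2l11: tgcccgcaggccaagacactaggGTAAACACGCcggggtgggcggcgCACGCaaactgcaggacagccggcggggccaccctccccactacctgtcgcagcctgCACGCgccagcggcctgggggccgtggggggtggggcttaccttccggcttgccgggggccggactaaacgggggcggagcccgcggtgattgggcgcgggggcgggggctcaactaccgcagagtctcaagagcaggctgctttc
Bcl2l1 held 1 GCGTG, 86 to 82 bases before the start. Bcl2l11 held 3, at 222 to 218, 203 to 199 and 146 to 142 bases before the start, and 1 GTAAACA at 227 to 221 bases, which overlaps the first of them. Of the 14 windows of the 8 genes, 4 held GCGTG (1 of Bcl2l1, 1 of Bcl2l11 and both of Bad), 1 of Bcl2l11 held GTAAACA, and 0 held the other HIF core, ACGTG. The other windows of Bcl2l1 and Bcl2l11 held none of the 3 motifs. In all 32851 windows of the table the shares were 28.2% for GCGTG, 3.2% for GTAAACA and 16.6% for ACGTG. The members' windows thus held GCGTG about as often as all windows did. A match describes these letters only and is not a bound site.

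In tKO against WT averaged over the doses, 4 of the 7 members tested were called, 1 higher and 3 lower, where 27.2% of all genes tested were called (13.9% higher and 13.3% lower). Their median log2 fold change was -0.21, and that of all genes tested was -0.02. At 0 ng/ml 1 of 7 was called (9.64% of all genes), at 0.2 ng/ml 4 of 7 (15.5%) and at 2 ng/ml 2 of 7 (16.0%). With DMOG 5 of 8 were called, 3 higher and 2 lower, where 60.8% of all genes tested were called (27.7% higher and 33.2% lower), so the members' share was near that of all genes. Their median with DMOG was 0.07, and that of all genes was -0.03. Bmf was not tested in experiment 1, where its mean lay under 1 FPKM.

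**Figure D1:**
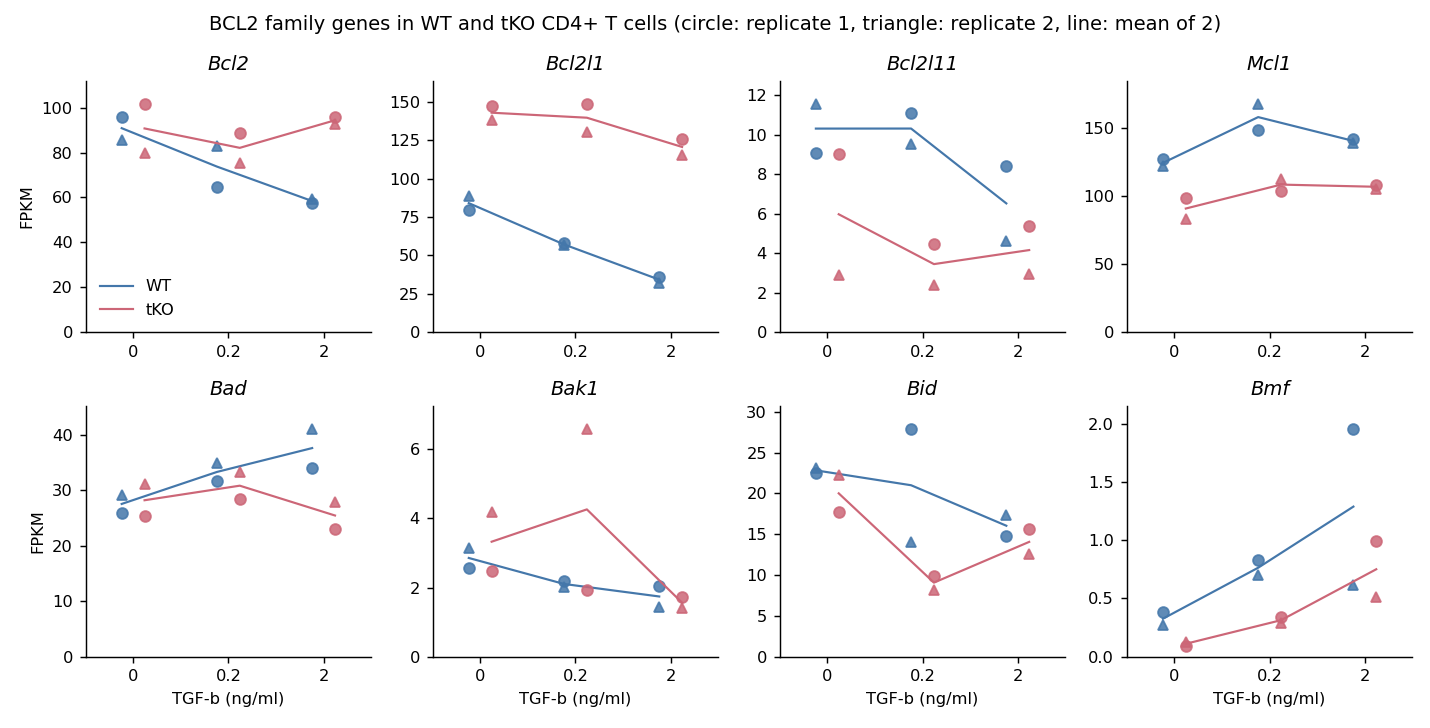
FPKM (vertical axes, each from 0) of the 8 genes against TGF-b dose (ng/ml, not to scale) in WT and tKO libraries of experiment 1. Points are single libraries and lines join the means of 2. All 6 tKO libraries lie above all 6 WT libraries for Bcl2l1 (115.5 to 148.7 against 32.1 to 88.6 FPKM) and below them for Mcl1 (82.9 to 112.9 against 121.8 to 167.7 FPKM).

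Among the pro-survival genes, Bcl2l1 (chromosome 2, 152606399 to 152657418, mm9) had the largest fold change of the members averaged over the doses. In WT it stood at 79.4 and 88.6 FPKM at 0 ng/ml, at 57.8 and 56.5 at 0.2 ng/ml, and at 36.2 and 32.1 at 2 ng/ml. In tKO the values were 147.5 and 138.3 FPKM, 148.7 and 130.6, and 125.7 and 115.5. Every tKO library was above every WT library, and in WT the libraries of the 3 doses did not overlap. The log2 fold change of tKO over WT was 0.76 ± 0.16 at 0 ng/ml (adjusted p = 0.00651 in limma), 1.27 ± 0.16 at 0.2 ng/ml (adjusted p = 0.000110) and 1.79 ± 0.16 at 2 ng/ml (adjusted p = 9.39e-06). Averaged over the doses it was 1.27 ± 0.09 (adjusted p = 2.42e-07). The call without TGF-b did not hold when WT replicate 1 of that dose was left out (0.68, adjusted p = 0.0846), and the others held under every alternative tried.

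TGF-b lowered Bcl2l1 in WT. From 0 to 2 ng/ml the log2 change was -1.27 ± 0.16 (adjusted p = 0.000178 in limma), in a comparison where 15.7% of all genes were called. From 0 to 0.2 ng/ml it was -0.55 ± 0.16 and was not called (adjusted p = 0.122, unadjusted p = 0.00384). In tKO the change from 0 to 2 ng/ml was -0.24 ± 0.16 (adjusted p = 0.314), with a 95% confidence interval from -0.58 to 0.09. The difference between the genotypes in this response was 1.03 ± 0.22 (adjusted p = 0.0280 in limma), and 2.97% of all genes passed that test. This call was lost without any of 7 of the 8 libraries involved, with fold changes from 0.95 to 1.11 and adjusted p from 0.0533 to 0.116, and without a mean-variance trend (adjusted p = 0.0805). It held without tKO at 0 ng/ml replicate 1.

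With DMOG, Bcl2l1 stood at 116.2, 104.0 and 112.1 FPKM, and with vehicle at 39.0, 33.4 and 33.9 FPKM. The groups were far apart, and the log2 fold change was 1.62 ± 0.11 (adjusted p = 1.19e-09 in limma).

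**Figure D2:**
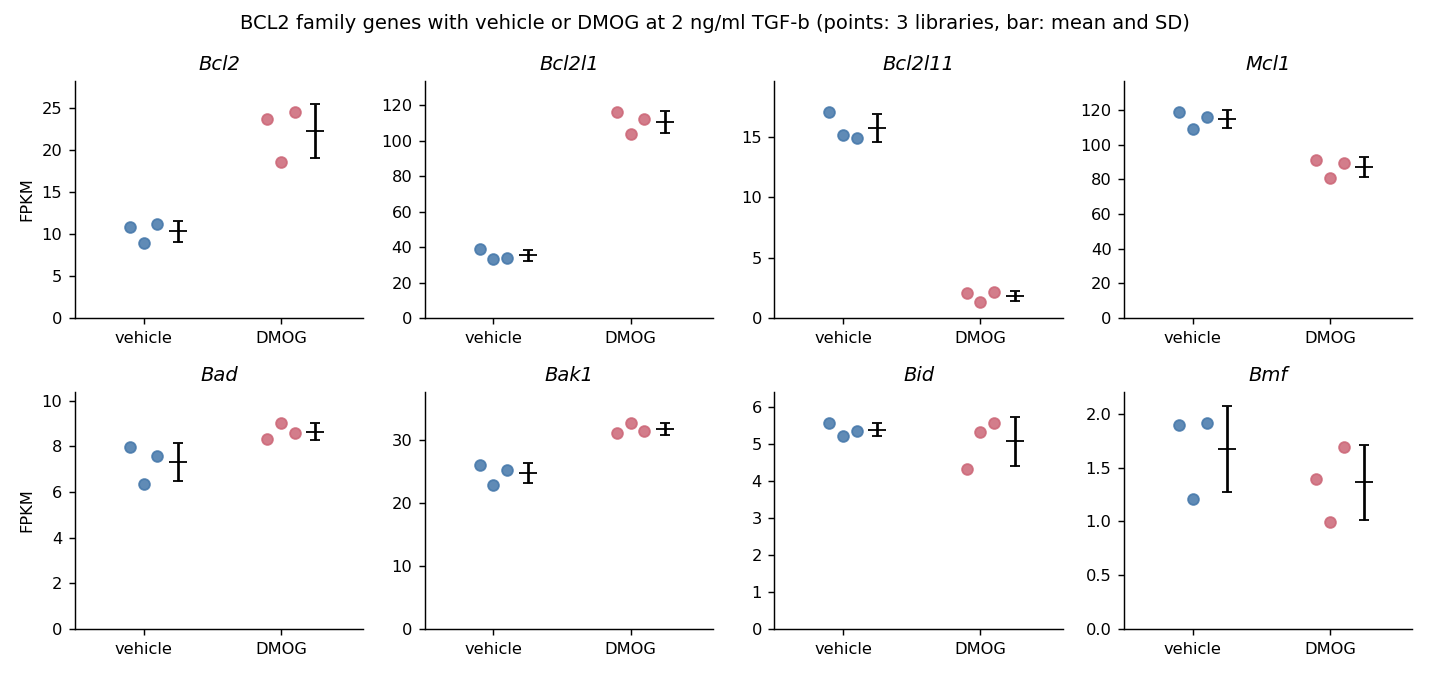
FPKM (vertical axes, each from 0) of the 8 genes in the 3 vehicle and 3 DMOG libraries of experiment 2, all at 2 ng/ml TGF-b. Points are single libraries and the bar beside them is the mean and SD. Bcl2l1, Bcl2 and Bak1 are higher and Bcl2l11 and Mcl1 lower with DMOG, with no overlap between the groups, while Bid and Bmf overlap.

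Mcl1 (chromosome 3, 95462642 to 95467101, mm9) was the most abundant member in WT at each dose. Its WT values were 126.9 and 121.8 FPKM at 0 ng/ml, 148.3 and 167.7 at 0.2 ng/ml, and 142.0 and 139.0 at 2 ng/ml. In tKO they were 98.8 and 82.9 FPKM, 104.0 and 112.9, and 108.3 and 105.3. Every tKO library was below every WT library. Averaged over the doses the log2 fold change was -0.46 ± 0.09 (adjusted p = 0.00153 in limma), and of 24 alternatives it lost the call in 1, without the 3 WT libraries of replicate 2 (-0.45, adjusted p = 0.0627). At the single doses it was -0.45 ± 0.15 (adjusted p = 0.0884, and 0.0279 with quantile normalization and 0.0491 without a filter), -0.54 ± 0.15 (adjusted p = 0.0312) and -0.39 ± 0.15 (adjusted p = 0.102, and 0.0468 with only the libraries compared). The call at 0.2 ng/ml was lost without WT replicate 1 (-0.63, adjusted p = 0.0740), WT replicate 2 (-0.45, adjusted p = 0.212) or tKO replicate 1 (-0.48, adjusted p = 0.0531) of that dose, without a mean-variance trend (adjusted p = 0.0761), and with only the libraries compared (adjusted p = 0.177).

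Mcl1 did not pass the test between doses in either genotype. In WT the log2 change from 0 to 2 ng/ml was 0.17 ± 0.15 and in tKO 0.24 ± 0.15 (adjusted p = 0.486 and 0.319 in limma). With quantile normalization the tKO value was 0.56 and was called (adjusted p = 0.0195). DMOG libraries held 91.4, 80.7 and 89.3 FPKM and vehicle libraries 118.7, 108.7 and 116.0 FPKM. The groups did not overlap, and the log2 fold change was -0.39 ± 0.11 (adjusted p = 0.00465).

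Bcl2 (chromosome 1, 108434726 to 108610867, mm9) fell with TGF-b in WT and was higher in tKO than in WT at 2 ng/ml. Its WT values were 95.9 and 85.8 FPKM at 0 ng/ml, 64.7 and 82.8 at 0.2 ng/ml, and 57.7 and 59.1 at 2 ng/ml. In tKO they were 101.7 and 79.8 FPKM, 88.7 and 75.5, and 96.0 and 92.8. These are sums of 2 table entries at the same locus with values close to each other (means of 51.6 and 39.3 FPKM in WT at 0 ng/ml), so fragments may be counted more than once and the levels may be up to about double. At 0 and 0.2 ng/ml the genotypes overlapped, and at 2 ng/ml both tKO libraries were above both WT libraries. The log2 fold change of tKO over WT was -0.01 ± 0.18 at 0 ng/ml (95% confidence interval -0.40 to 0.38) and 0.68 ± 0.18 at 2 ng/ml (adjusted p = 0.0211 in limma). In WT the change from 0 to 2 ng/ml was -0.63 ± 0.18 (adjusted p = 0.0323), and in tKO it was 0.07 ± 0.18 (adjusted p = 0.840). The difference between these responses, 0.69 ± 0.26, did not pass the test (adjusted p = 0.163). With the higher of the 2 entries alone, both calls held (0.69, adjusted p = 0.0275, and -0.66, adjusted p = 0.0342).

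These Bcl2 calls were lost when single libraries were left out. Without any of the 4 libraries at 2 ng/ml in turn, the fold change of tKO over WT at that dose stayed between 0.66 and 0.71, with adjusted p from 0.0895 to 0.126 in limma, and without a mean-variance trend adjusted p was 0.0535. Without any of the 4 WT libraries at 0 and 2 ng/ml in turn, the WT change lay between -0.71 and -0.55, with adjusted p from 0.0922 to 0.200. That call was also lost without a filter (adjusted p = 0.0514), with quantile normalization (adjusted p = 0.0538) and without a trend (adjusted p = 0.0721). Averaged over the doses, tKO over WT was 0.28 ± 0.10 and was not called (adjusted p = 0.0666). It was called in 3 of 24 alternatives, without all 3 tKO libraries of replicate 2 and without that replicate at 0 or at 0.2 ng/ml, with values up to 0.38 and adjusted p down to 0.0372. With DMOG Bcl2 stood at 23.7, 18.6 and 24.5 FPKM and with vehicle at 10.8, 8.96 and 11.2 FPKM. Each DMOG library was above each vehicle library, for a log2 difference of 1.03 ± 0.13 (adjusted p = 2.16e-06), and both of the table's Bcl2 entries were higher (means of 21.5 against 10.0 FPKM and 0.797 against 0.315 FPKM).

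The make-up of the transcripts of these 3 pro-survival genes followed from these levels. Other pro-survival genes are not in the shares below. Among them, Bcl2a1b and Bcl2a1d had means of 97.9 and 105.8 FPKM with vehicle and 104.0 and 55.2 FPKM with DMOG. In WT their means were 72.9 and 42.3 FPKM, and in tKO 104.0 and 54.8 FPKM. Of the summed FPKM of Mcl1, Bcl2l1 and Bcl2, Bcl2l1 made 28.1% in WT at 0 ng/ml and 14.7% at 2 ng/ml, and 44.2% and 37.5% in tKO. Mcl1 made 41.6% and 60.3% in WT and 28.0% and 33.2% in tKO. With vehicle Mcl1 made 71.5% and Bcl2l1 22.1%, and with DMOG the values were 39.6% and 50.4%. Bcl2l1 was the most abundant of the 8 genes in the 3 tKO groups and with DMOG, and Mcl1 in the 3 WT groups and with vehicle. In tKO at 0 ng/ml the next genes, Mcl1 (82.9 and 98.8 FPKM) and Bcl2 (79.8 and 101.7 FPKM), overlapped, as did Bcl2 and Bcl2l1 in WT at 0 ng/ml. Both overlaps rest on the summed Bcl2 entries. With the higher entry alone, Bcl2 stood at 44.8 and 50.7 FPKM in tKO at 0 ng/ml, below Mcl1, and at 54.1 and 49.0 FPKM in WT, below Bcl2l1. The share of Bcl2l1 was then 32.3% in WT at 0 ng/ml and 16.5% at 2 ng/ml, and 50.8% and 43.1% in tKO, and that of Mcl1 was 47.8% and 67.9% in WT and 32.2% and 38.2% in tKO. The genes that were most abundant in each group stayed so with that entry.

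**Figure D3:**
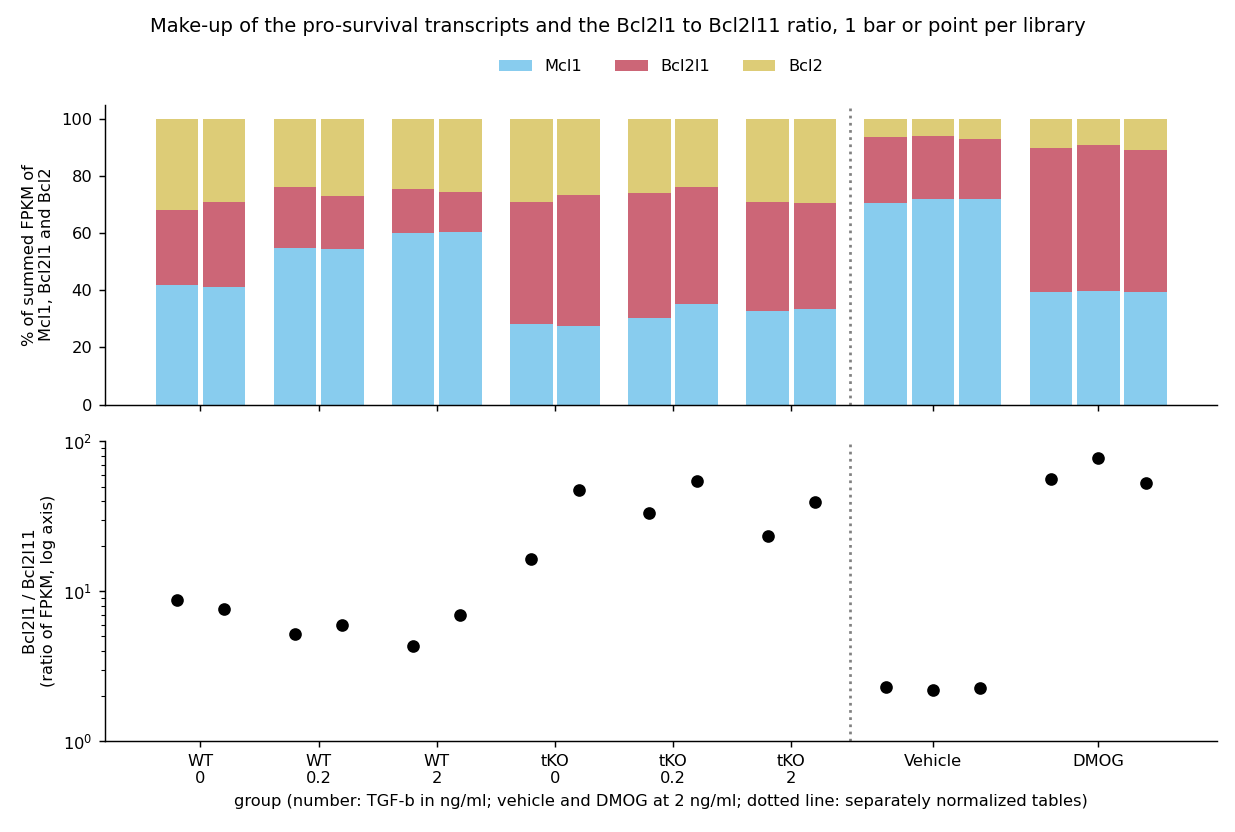
Upper panel, share of the summed FPKM of Mcl1, Bcl2l1 and Bcl2 (%, from 0) in each library, with the entries of Bcl2 summed. Lower panel, ratio of Bcl2l1 to Bcl2l11 FPKM in each library on a log axis. Bcl2l1 holds 36.8% to 45.9% of the sum in tKO and 14.0% to 29.9% in WT, and 49.6% to 51.2% with DMOG against 21.0% to 23.1% with vehicle. The ratio is at least 16.4 in tKO and at most 8.77 in WT.

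Among the BH3-only genes, Bcl2l11 (chromosome 2, 127951771 to 127988283, mm9), which encodes BIM, had the largest fold change of the members with DMOG. The 3 vehicle libraries held 17.1, 15.1 and 14.9 FPKM and the DMOG libraries 2.06, 1.35 and 2.13 FPKM. No value came near the other group, and the log2 fold change was -2.56 ± 0.12 (adjusted p = 1.11e-11 in limma). The table gave Bcl2l11 in 3 entries, and all were lower with DMOG, with means of 10.8 against 1.12 FPKM, 4.13 against 0.690 FPKM and 0.805 against 0.0358 FPKM.

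In experiment 1 Bcl2l11 was lower in tKO, with replicates that differed. WT libraries held 9.06 and 11.6 FPKM at 0 ng/ml, 11.1 and 9.53 at 0.2 ng/ml, and 8.44 and 4.60 at 2 ng/ml. The tKO libraries of replicate 1 held 9.02, 4.49 and 5.38 FPKM at the 3 doses and those of replicate 2 held 2.92, 2.41 and 2.94 FPKM. All 3 of replicate 2 were below every WT library, while 2 of replicate 1 lay within the WT range. Averaged over the doses the log2 fold change was -0.92 ± 0.25 (adjusted p = 0.0142 in limma). It was -1.38 ± 0.43 at 0.2 ng/ml (adjusted p = 0.0461), -0.84 ± 0.43 without TGF-b (adjusted p = 0.282) and -0.54 ± 0.43 at 2 ng/ml (adjusted p = 0.443).

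The Bcl2l11 call over the doses was lost without the 3 tKO libraries of replicate 2 (-0.47, adjusted p = 0.163 in limma), without the 3 WT libraries of replicate 1 (-0.82, adjusted p = 0.159) or replicate 2 (-1.03, adjusted p = 0.0952), without tKO at 2 ng/ml replicate 2 alone (-0.81, adjusted p = 0.0577), and with no filter on low values (adjusted p = 0.0681). The call at 0.2 ng/ml was lost without WT replicate 1 (-1.28, adjusted p = 0.199), WT replicate 2 (-1.48, adjusted p = 0.154) or tKO replicate 2 (-1.04, adjusted p = 0.269) of that dose, and under 4 other settings (a pseudocount of 0.1, no filter, no trend, only the libraries compared) with adjusted p from 0.0547 to 0.152. TGF-b did not change Bcl2l11 past the test in WT (-0.63 ± 0.43, adjusted p = 0.361) or tKO (-0.32 ± 0.43, adjusted p = 0.657) from 0 to 2 ng/ml. The ratio of Bcl2l1 to Bcl2l11 transcripts was 5.64 ± 1.90 in WT and 31.4 ± 11.3 in tKO at 2 ng/ml (SD, n = 2), and 2.25 ± 0.05 with vehicle and 62.1 ± 13.2 with DMOG (SD, n = 3). Bcl2l11 had 1 entry in experiment 1 and was the sum of 3 in experiment 2, where fragments may be counted more than once. The ratios were therefore not compared between experiments.

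**Figure D4:**
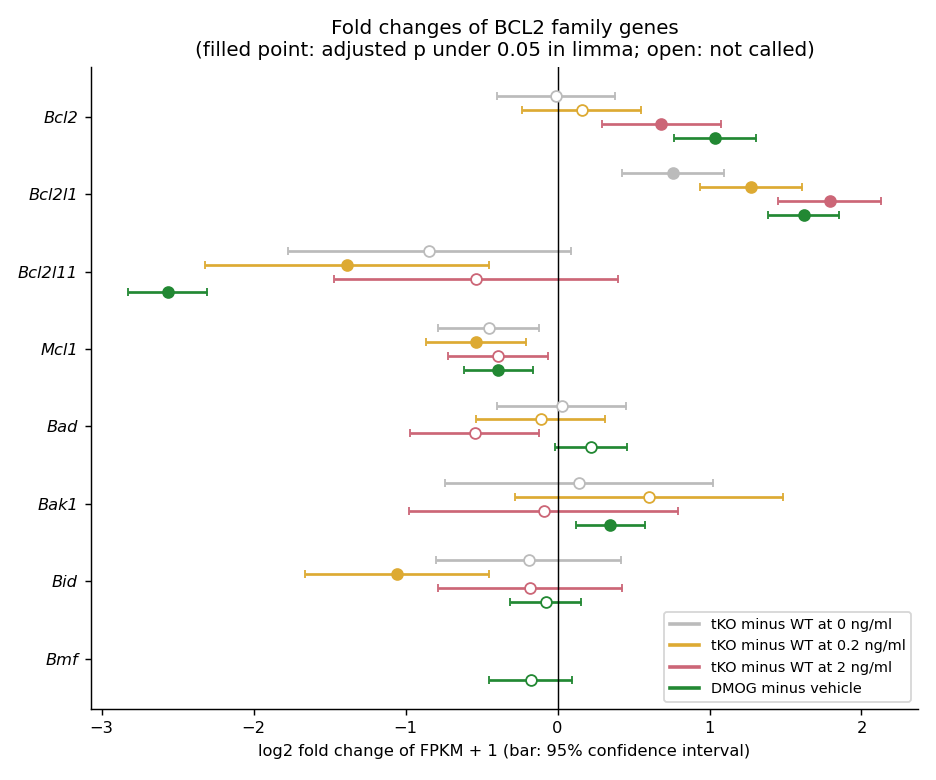
Log2 fold changes of FPKM + 1 with 95% confidence intervals (bars) for tKO over WT at each TGF-b dose and for DMOG over vehicle, by gene. Filled points passed the adjusted threshold and open points did not. Bcl2l1 is filled in all 4 comparisons, from 0.76 to 1.79, and Bmf has a value with DMOG only.

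Bid (chromosome 6, 120786247 to 120866868, mm9), which caspase-8 cleaves to link death receptors to the mitochondria, was called lower in tKO over the doses, but the call was not stable. WT libraries held 22.5 and 23.1 FPKM at 0 ng/ml, 28.0 and 14.1 at 0.2 ng/ml, and 14.8 and 17.3 at 2 ng/ml. In tKO the values were 17.7 and 22.3 FPKM, 9.93 and 8.23, and 15.6 and 12.6. The tKO libraries lay below the WT libraries at 0 ng/ml, narrowly, and at 0.2 ng/ml, and the genotypes overlapped at 2 ng/ml. Averaged over the doses the log2 fold change was -0.48 ± 0.16 (adjusted p = 0.0448 in limma), and 18 of 24 alternatives lost the call. Among them were the labelled series as a random factor (adjusted p = 0.0864) and means per labelled series (adjusted p = 0.0744). Leaving out any 1 library lost it (adjusted p from 0.0501 to 0.132), except WT replicate 2 and tKO replicate 1 at 0.2 ng/ml. At 0.2 ng/ml it was -1.06 ± 0.28 (adjusted p = 0.0228), and without WT replicate 1 of that dose it was -0.58 (adjusted p = 0.237) and without tKO replicate 2 it was -0.93 (adjusted p = 0.122). That call was also lost without a filter (adjusted p = 0.0721) and with only the libraries compared (adjusted p = 0.148).

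With DMOG Bid held 4.32, 5.31 and 5.57 FPKM and with vehicle 5.57, 5.22 and 5.36 FPKM. These values overlapped, and the log2 fold change of -0.08 ± 0.11 (adjusted p = 0.554 in limma) had a 95% confidence interval from -0.31 to 0.16. The Bid entry overlaps that of Bcl2l13, and the libraries do not mark strand, so reads in the shared stretch cannot be assigned with certainty. The same holds for Bad, whose entry overlaps that of Gpr137, and for Bak1, whose entry overlaps that of Ggnbp1.

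Bad (chromosome 19, 7012478 to 7026383, mm9), whose product binds BCL2 and BCL-XL unless survival kinases phosphorylate it, was not called in any comparison. WT libraries held 26.0 and 29.1 FPKM at 0 ng/ml, 31.7 and 35.0 at 0.2 ng/ml, and 34.1 and 41.2 at 2 ng/ml. In tKO the values were 25.3 and 31.1 FPKM, 28.5 and 33.3, and 23.1 and 27.9. At 2 ng/ml both WT libraries were above both tKO libraries, at a log2 fold change of -0.55 ± 0.20 (adjusted p = 0.0782 in limma), and at the lower doses the genotypes overlapped. In DMOG libraries Bad stood at 8.30, 9.04 and 8.57 FPKM and in vehicle libraries at 7.98, 6.37 and 7.57 FPKM. The groups did not overlap, but the fold change of 0.22 ± 0.11 was not called (adjusted p = 0.0992) except with quantile normalization (0.33, adjusted p = 0.0115).

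Bmf (chromosome 2, 118354492 to 118382266, mm9), whose product is held at the cytoskeleton until it is released, was the weakest member. WT libraries held 0.385 and 0.268 FPKM at 0 ng/ml, 0.828 and 0.699 at 0.2 ng/ml, and 1.96 and 0.618 at 2 ng/ml. In tKO the values were 0.0949 and 0.128 FPKM, 0.337 and 0.291, and 0.990 and 0.511. At each dose the WT mean was above the tKO mean, and the libraries of 0 and 2 ng/ml did not overlap within a genotype. Without a filter on low values, Bmf was not called in tKO over WT averaged over the doses (-0.34 ± 0.15, adjusted p = 0.176 in limma), nor from 0 to 2 ng/ml in WT (0.72 ± 0.26, adjusted p = 0.145) or tKO (0.64 ± 0.26, adjusted p = 0.178). With DMOG it held 1.40, 0.998 and 1.69 FPKM and with vehicle 1.90, 1.21 and 1.92 FPKM, which overlapped (-0.18 ± 0.13, adjusted p = 0.244).

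Bak1 (chromosome 17, 27154979 to 27173323, mm9), which encodes a pore-forming effector, rose slightly with DMOG. DMOG libraries held 31.0, 32.7 and 31.4 FPKM and vehicle libraries 26.1, 22.9 and 25.3 FPKM. The groups did not overlap, and the log2 fold change was 0.35 ± 0.11 (adjusted p = 0.00999 in limma). In experiment 1 it was low, from 1.45 to 3.15 FPKM in WT and from 1.41 to 6.59 FPKM in tKO, with the 2 highest values in tKO replicate 2 at 0.2 and 0 ng/ml (6.59 and 4.18 FPKM). Averaged over the doses tKO over WT was 0.22 ± 0.24 (adjusted p = 0.543). At 0.2 ng/ml it was 0.60 ± 0.41 (adjusted p = 0.349), and 1.29 without tKO replicate 1 of that dose, which left replicate 2 alone and was called (adjusted p = 0.0255). Bak1 and Bcl2 stood at different levels in the tables, Bak1 at 1.74 FPKM and Bcl2 at 58.4 FPKM in WT at 2 ng/ml against 24.7 and 10.3 FPKM with vehicle, so no level was compared between experiments.

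From 0 to 0.2 ng/ml TGF-b none of the 7 members tested was called in WT (1.59% of all genes were) or in tKO (2.48%), and from 0 to 2 ng/ml none was called in tKO (18.0%), all in limma. The members with an unadjusted p under 0.05 numbered 2 in WT at 0.2 ng/ml (Bcl2l1 and Mcl1), 1 in tKO at 0.2 ng/ml (Bid, -1.06 ± 0.28, adjusted p = 0.0728, and 0.0464 with the labelled series as a random factor) and 0 in tKO at 2 ng/ml.

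The rest of the BCL2 family was taken from 3 lists (pro-survival, effector and BH3-only) of 12 genes in all, of which 8 could be tested in experiment 1. Of these, 4 rose in tKO averaged over the doses, where 13.9% of all genes tested did, and the other 4 did not pass the test, with a median log2 fold change of 0.39 beside -0.02 for all genes. The doses differed, with 1 gene called at 0 ng/ml, 3 at 0.2 ng/ml and 1 at 2 ng/ml and medians of 0.57, 0.78 and -0.06. Of all genes tested, 9.64%, 15.5% and 16.0% were called at these doses. Pmaip1, which encodes the BH3-only protein NOXA that binds MCL1, rose by 0.95 ± 0.14 (adjusted p = 0.000218 in limma), from a mean of 9.96 to 19.8 FPKM. Bcl2l2, which encodes the pro-survival protein BCL-W, rose by 0.91 ± 0.21 (adjusted p = 0.00592) at means of 0.697 and 2.18 FPKM. By dose its means in tKO and WT were 2.14 and 0.371 FPKM at 0 ng/ml (adjusted p = 0.0592), 3.07 and 0.427 FPKM at 0.2 ng/ml (adjusted p = 0.0143), and 1.34 and 1.29 FPKM at 2 ng/ml (log2 fold change 0.03, adjusted p = 0.973). The effector gene Bax rose by 0.40 ± 0.11 (adjusted p = 0.0151), from 224.1 to 312.5 FPKM. By dose it was 0.56 at 0 ng/ml (adjusted p = 0.0888), 0.78 at 0.2 ng/ml (adjusted p = 0.0139) and -0.14 at 2 ng/ml (180.5 against 199.3 FPKM, adjusted p = 0.669). In tKO at 0.2 ng/ml, replicates 1 and 2 held 2.03 and 4.11 FPKM of Bcl2l2 and 302.8 and 427.2 FPKM of Bax. Replicate 2 is the library with the lowest relative reads per FPKM in experiment 1. The fourth, Bcl2a1b, belongs to a group of near-identical copies and is uncertain.

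With DMOG, at 2 ng/ml TGF-b, 7 of these genes were tested, and 2 rose and 3 fell, a share near the 60.8% of all genes called. Among those that fell was the pro-survival gene Bcl2a1d, from a mean of 105.8 to 55.2 FPKM. It belongs to the same group of copies as Bcl2a1b and is as uncertain. Bcl2l2 rose by 0.69 ± 0.10 (adjusted p = 2.23e-05 in limma) and Bax by 0.53 ± 0.11 (adjusted p = 0.000513). Bbc3, which encodes the BH3-only protein PUMA, fell by 0.86 on the log2 scale (SE 0.13, adjusted p = 1.93e-05), from 16.4 to 8.56 FPKM. Pmaip1 fell by 0.68 (SE 0.13, adjusted p = 0.000182), from 8.31 to 4.81 FPKM, although it was higher in tKO at 2 ng/ml (29.9 against 16.3 FPKM, 0.83 ± 0.24, adjusted p = 0.0353). TGF-b at 2 ng/ml raised Pmaip1 in WT (1.21 ± 0.24, adjusted p = 0.00511) and in tKO (1.08 ± 0.24, adjusted p = 0.00903).

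Genes around the family were described from further lists, where the shares of all genes called were 27.2% in tKO (averaged over the doses) and 60.8% with DMOG. Of 6 tested BCL2-related genes of the BNIP3 type and atypical members, 3 rose in tKO and 1 fell, with a median of 0.88. Bnip3, a mitophagy receptor and HIF target, rose by 4.03 ± 0.10 (adjusted p = 1.01e-11 in limma) and by 4.15 ± 0.11 with DMOG (adjusted p = 3.60e-15), and its relative Bnip3l by 1.46 ± 0.11 (adjusted p = 3.03e-07) and 0.95 ± 0.11 (adjusted p = 1.29e-06). Of 9 apoptosome and IAP genes, 1 rose and 2 fell in tKO (median 0.15), and 3 rose and 2 fell with DMOG (median 0.20), shares near those of all genes.

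Of 8 genes of the death receptor pathway, 4 rose and 2 fell in tKO (median 0.27), and 4 rose and 1 fell with DMOG (median 0.27). Fasl, the ligand of the death receptor FAS, rose by 2.36 ± 0.29 in tKO (adjusted p = 3.61e-05 in limma), from a mean of 6.82 to 36.9 FPKM. Of 19 regulators and partners of BCL2 proteins, 8 rose in tKO and the other 11 did not pass the test (median 0.19), and 6 rose and 7 fell with DMOG (median -0.14), the last a share near that of all genes. Stat5a, which encodes a transcription factor that carries interleukin-2 signals to Bcl2l1 and Bcl2, rose by 1.04 ± 0.12 in tKO (adjusted p = 1.86e-05). Its means were 87.7 FPKM with DMOG and 56.9 FPKM with vehicle. Ddit3, which encodes CHOP, a stress factor known to repress Bcl2, fell by 1.07 with DMOG (SE 0.12, adjusted p = 4.49e-07). In tKO Ddit3 was not called (-0.27 ± 0.13, adjusted p = 0.169). Whether these genes act on the members here was not tested. Vdac1, a mitochondrial channel that BCL2 proteins bind, rose by 0.92 ± 0.08 in tKO (adjusted p = 1.93e-06) and 0.90 ± 0.11 with DMOG (adjusted p = 1.20e-06).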

How the data were processed

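Libraries of 18 samples were made with the SMARTer Ultra low input kit, which does not mark strand, and each experiment was sequenced on its own instrument model, per the labels' protocols. Reads were handled with Trimmomatic, TopHat, Cufflinks and Cuffdiff on mm9, per the submitters' processing notes, with versions and settings not given in the sources used here. For each experiment the authors deposited 1 table of FPKM values per library, so no count model was fitted and absolute depth is unknown.

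Exact duplicate entries were dropped (17 and 291) and entries with the same symbol summed. A gene was tested where its mean over a table reached 1 FPKM (10354 and 9884 genes). The test used log2(FPKM + 1) in limma 3.58.1 (R 4.3.3), fitted with a coefficient for every group and a mean-variance trend, and the residual spread was estimated over all libraries of an experiment. Adjusted p-values are two-sided with Benjamini-Hochberg adjustment, threshold 0.05. The procedure was tested on simulated data. Tests were made only within a table. Promoter windows are RefSeq's, build GRCm38.p6, while the tables use mm9, and no position was carried between the builds.

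All 8 members are described. Of each other list, at most the 3 called genes with the smallest p in a comparison are named, the rest of the family forming 3 lists. The members and lists were chosen with earlier results of these data known. Alternatives were other pseudocounts, no filter, quantile normalization, no trend, replicate and series blocks, series means, only the libraries compared, and leaving out libraries. Some results on genes around the family are not reported here.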

Additional observations from a re-analysis of the deposited data

Results flagged for a closer look

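The fall of Bcl2l1 from 0 to 2 ng/ml TGF-b was larger in WT than in tKO, by 1.03 ± 0.22 on the log2 scale in the test of the difference between the genotypes (adjusted p = 0.0280 in limma, 2 libraries per group). This call was lost in 8 of 15 alternatives. In WT both libraries at 2 ng/ml (36.2 and 32.1 FPKM) were below both at 0 ng/ml (79.4 and 88.6 FPKM), and in tKO the libraries at 2 ng/ml (125.7 and 115.5 FPKM) were below those at 0 ng/ml (147.5 and 138.3 FPKM) by less. Groups of 2 or 3 libraries allowed no search for outlying samples.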

How the results depend on the processing

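Of 71 tests of members, 19 were called, and 9 of these kept their call under every alternative, among them all 5 with DMOG. Of 52 that were not called, 8 were called by some alternative, and 0 changed direction while called. The number of genes called moved by over 1.5 times under these alternatives. For 0.2 against 0 ng/ml in WT, 165 genes became 72 without a filter, 105 without a trend, 252 with the labelled series as a random factor, 283 with the series as a fixed block, and 81 with only the libraries compared. For 0.2 against 0 ng/ml in tKO, 257 became 413 with the series as a fixed block and 27 with only the libraries compared. For the difference of the 2 ng/ml response, 308 became 157 without a filter, 167 without a trend, 512 with the replicate block and 528 with the series as a random factor. For tKO against WT, 2817 averaged over the doses became 1840 with means per series, and 1604 at 0.2 ng/ml became 631 with only the libraries compared. Leaving out libraries gave 1303 to 3209 genes averaged over the doses (1303 without the 3 WT libraries of replicate 2, 1515 without those of replicate 1), 513 to 792 at 0 ng/ml (998 with all), 749 to 2667 at 0.2 ng/ml, and 717 to 1057 at 2 ng/ml (1655 with all). It gave 31 to 74 for 0.2 and 660 to 1132 for 2 against 0 ng/ml in WT (1626 with all), 108 to 708 and 579 to 1831 in tKO (1867 with all for 2 ng/ml), 78 to 393 for the difference, and 5282 to 6295 with DMOG (6014 with all).

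With the replicate number as a block, Bad at 2 ng/ml passed the test in tKO against WT (-0.55, adjusted p = 0.0356 in limma), and with the series as a random factor Bid passed it for 0.2 against 0 ng/ml in tKO (-1.06, adjusted p = 0.0464). Deviations of same-numbered libraries of the genotypes correlated at r from 0.04 to 0.25 at the same dose, and those of vehicle and DMOG libraries at -0.19 to 0.44, so the numbers were not taken to pair the samples. Within a labelled series, deviations at different doses correlated at r from 0.06 to 0.19 in WT and 0.11 to 0.42 in tKO. The shares of Mcl1, Bcl2l1 and Bcl2 transcripts with 1 Bcl2 entry were computed after seeing the data. A fit that leaves 1 library in a group assumes that it varies like the other groups. Having 2 libraries per group and an unknown depth limits what could be seen for Bcl2l11, Bid and Bak1 in experiment 1, whose replicates differed widely, and for Bmf, which was near the lower end of the table.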

Other observations

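For each member called in experiment 1, the 2 genes with the most similar pattern were sought among all genes tested, by Pearson's r of log2(FPKM + 1) over the 12 libraries. These values are descriptions, since the libraries share genotype and dose. Bcl2l1 was followed most closely by Cd82 (r = 0.984, 144.7 to 691.4 FPKM), which encodes a tetraspanin, and Gpr183 (r = 0.984, 5.18 to 59.4 FPKM), which encodes an oxysterol receptor that guides lymphocyte migration. Bcl2 was closest to Ptger4 (r = 0.936), which encodes a prostaglandin E2 receptor, and Anxa6 (r = 0.929). Mcl1 was closest to Rin3 (r = 0.965) and Aspscr1 (r = 0.962), and Bcl2l11 to Rhobtb2 (r = 0.934) and Abhd16a (r = 0.924). For Bid the closest genes were Ddx21 (r = 0.911), which encodes a nucleolar RNA helicase, and Eif3l (r = 0.876), which encodes a subunit of a translation initiation factor.

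Among the members themselves, over the same 12 libraries, Bcl2l1 ran with Bcl2 (r = 0.79) and against Mcl1 (r = -0.82) and Bad (r = -0.71), and Bcl2 ran against Bad (r = -0.84). Bcl2l11 ran with Bid (r = 0.60) and Mcl1 (r = 0.59). Over the 6 libraries of experiment 2 the signs with Bad were the opposite (r = 0.79 for both Bcl2l1 and Bcl2), while Bcl2l1 again ran with Bcl2 (r = 0.97) and against Mcl1 (r = -0.91). Casp6, an executioner caspase, was higher in tKO without TGF-b (93.3 against 22.1 FPKM, log2 fold change 2.03 ± 0.21, adjusted p = 3.95e-05 in limma) and not called at 2 ng/ml (27.1 against 42.7 FPKM, -0.61 ± 0.21, adjusted p = 0.0684). It rose with TGF-b from 0 to 2 ng/ml in WT (0.88 ± 0.21, adjusted p = 0.0128) and fell in tKO (-1.75 ± 0.21, adjusted p = 0.000179), and the difference between these responses was -2.63 ± 0.30 (adjusted p = 0.00112). This gene was singled out after its values were seen.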
